A study of Mus musculus with 12 samples.

Results

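Rab GTPases are the largest branch of the small GTPases, and their genes were followed here across sorted thymocytes of C57BL/6 mice. A gene was counted when the array annotation gave its probe sets a lone symbol made of Rab and a number, with or without a short suffix. The symbol form matched 63 genes, of which 4 were left out: Rab3ip and Rab5if are no GTPases, and Rab10os and Rab26os are antisense transcripts. The remaining 59 genes, of 18193 measured, were read by 132 of 34945 probe sets. A lone probe set read 21 of them, and several probe sets read the other 38.

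A Rab protein is a molecular switch that marks a membrane. Bound to GTP it recruits effectors, which move, tether or fuse vesicles, and bound to GDP it is drawn off the membrane by a GDP dissociation inhibitor. Guanine nucleotide exchange factors (GEFs) turn it on and GTPase-activating proteins (GAPs) turn it off, and each compartment of the secretory and endocytic routes carries its own Rabs. In T cells these routes carry the T cell receptor and the coreceptors to and from the surface, and in cytotoxic cells they release lytic granules.

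The study compared 4 subsets with 3 arrays each, all from untreated cells whose RNA was extracted straight after isolation. DN thymocytes were sorted as CD4-CD8-TCRb-, DP thymocytes as CD4+CD8+, CD4SP thymocytes as CD4+CD8-TCRb(hi) and CD8SP thymocytes as CD4-CD8+TCRb(hi). DN cells precede DP cells in the thymus, and DP cells give rise to both single-positive subsets. The sources used here give no age, and it is not stated whether each array of a subset stands for a different animal. The p-values therefore cover the spread among the arrays at hand, which may be technical. The number of arrays limits the precision.

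Values are log values, read as log2, from which the mean of the 3 DP arrays had been subtracted for each probe set. DP therefore averages 0 for each gene, levels are lost, and no gene can be set against another in abundance. A gene was called, and is said to have risen or fallen, at a Benjamini-Hochberg adjusted p under 0.05 in a limma fit over all genes and all 12 arrays. Differences are given as log2 ± the standard error of that fit, and n is 3 arrays per subset throughout.

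The sort genes followed the labels. Cd4 lay at -3.88, -6.49 and -5.29 on the DN arrays, at -0.76, -0.65 and -0.52 on the CD4SP arrays and at -8.39, -9.20 and -9.12 on the CD8SP arrays. Cd8a lay between -4.59 and -2.63 in DN, between -6.84 and -6.35 in CD4SP and between -0.43 and -0.20 in CD8SP. Markers of other blood cells and of γδ T cells were highest on the DN arrays. The mean of 12 myeloid and dendritic markers was -0.19 to 0.18 in DP, against 1.83 to 3.03 in DN, that of 8 NK and innate lymphoid markers 1.29 to 2.61 in DN, that of 7 B cell markers 0.61 to 1.97 and that of 3 γδ T cell markers 3.05 to 3.67. The mean of the NK list was 1.10 to 1.28 on the CD8SP arrays, where 2 of its 8 markers rose relative to DP, 1 fell and 5 were not called (median 0.44), and the largest of these differences was that of Klrd1 (5.90). Levels being lost, none of these markers can be said to be at or near 0. Arrays DN replicate 1 and CD8SP replicate 1 stood apart, with the lowest array weights of 0.527 and 0.276. Calls of Rab genes that ended without 1 of them are marked where they are given, and counts of called genes also moved without them.

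Of the 59 Rab genes, 12 rose and 8 fell in DP relative to DN, where 17.8% of all genes were called higher and 18.8% lower. The 20 called Rab genes are 33.9% of the family, against 36.6% of all genes. CD4SP relative to DP had 8 Rab genes higher and 8 lower, which is 27.1% of the family against 32.7% of all genes (16.4% higher and 16.2% lower). CD8SP relative to DP had 9 higher and 12 lower, which is 35.6% of the family against 39.0% of all genes (18.2% higher and 20.9% lower). CD4SP relative to CD8SP had 5 higher and 0 lower by limma (10 and 2 at an unadjusted p under 0.05), which is 8.47% of the family against 12.7% of all genes (7.78% higher and 4.91% lower). In each comparison the family's share lies near or under that of all genes, so these counts are no result about the family. Several counts move with single arrays. The 12 higher in DP than DN became 9 without DN replicate 1 and 15 without CD8SP replicate 1. Without CD8SP replicate 1 the 8 lower in CD4SP than DP became 11. The 8 higher in CD4SP than DP became 5 without DP replicate 3, and the 8 lower became 4 or 5 without DN replicate 2, any one DP array or CD4SP replicate 2 or 3. The 12 lower in CD8SP than DP became 7 without DP replicate 2 or 3. The 5 higher in CD4SP than CD8SP became 2 or 3 without any one CD4SP array or CD8SP replicate 1 or 2, and the 0 lower became 1 without CD8SP replicate 1.

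The sizes were modest. Differences of at least 1 on the log2 scale were called for Rab38 and Rab44 in DP against DN, for Rab37 in CD4SP against DP and for Rab37 in CD8SP against DP, and for 0 members in CD4SP against CD8SP, where 8.42%, 8.77%, 9.56% and 1.79% of all genes passed both limits. The median difference of the 59 genes was 0.03 in DP against DN, 0.07 in CD4SP against DP, -0.08 in CD8SP against DP and 0.14 in CD4SP against CD8SP, against 0.04, 0.04, 0.00 and 0.03 over all genes. Arrays of the groups did not overlap for 35 members in the first comparison, 28 in the second, 29 in the third and 13 in the last, where 49.8%, 49.4%, 48.6% and 30.3% of all genes did not. The comparisons of CD4SP and CD8SP with DP, and of DP with DN, share the 3 DP arrays, so their values are given side by side and no agreement between them is read as support.

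**Figure D1:**
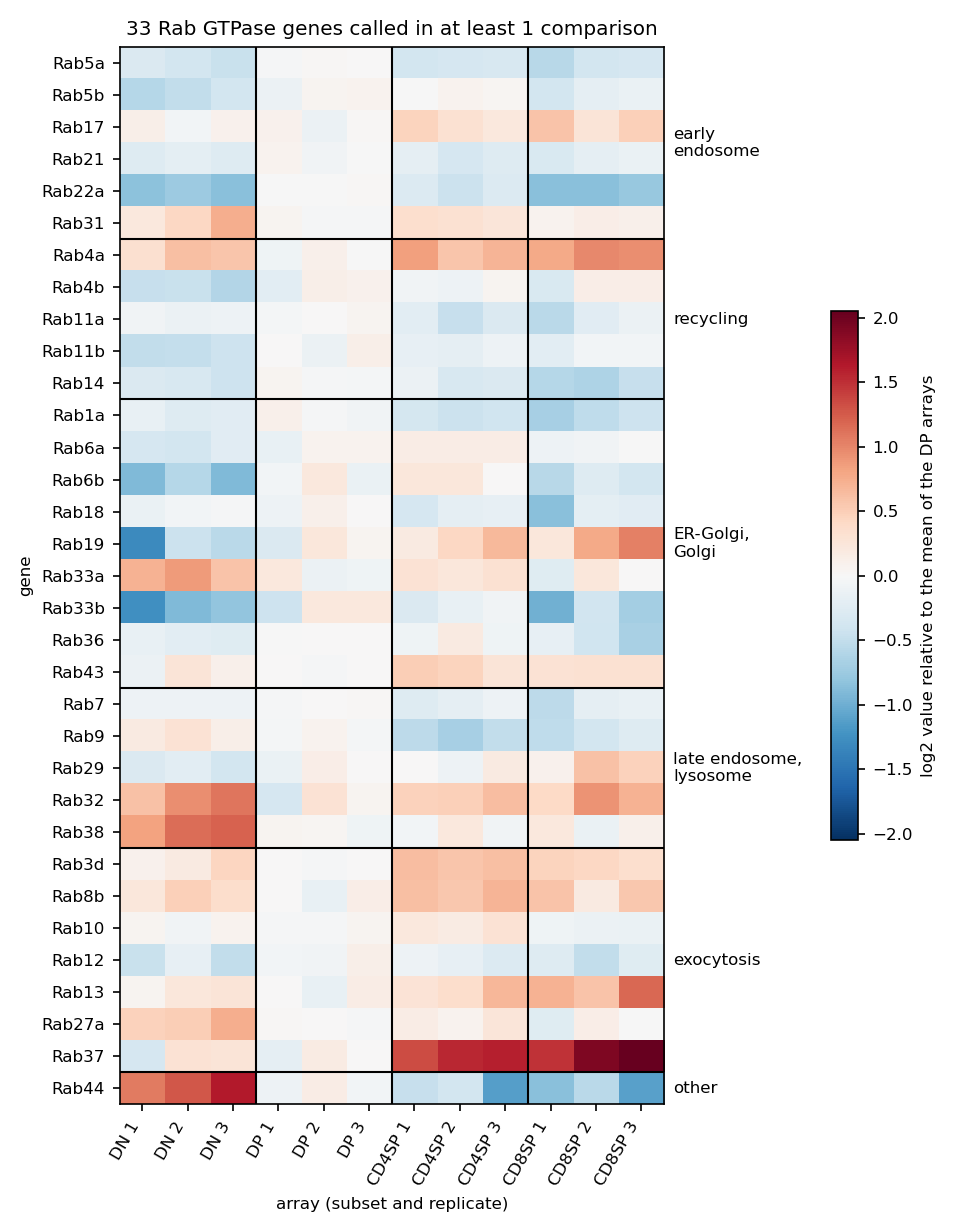
Log2 value of the 33 Rab genes called in at least 1 comparison (rows, grouped by where the protein acts) on each of the 12 arrays (columns), relative to the DP mean. Rab37 reaches 2.05 in CD8SP and Rab44 1.63 in DN, while most other cells lie within 1 of the DP mean.

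The Rabs of exocytosis and delivery to the plasma membrane held the family's largest rise. Of 13 such genes, 4 rose and 0 fell in CD4SP relative to DP (by limma, with 0 lower at an unadjusted p under 0.05), and 4 rose and 1 fell in CD8SP relative to DP. These calls are 30.8% and 38.5% of the route, against 32.7% and 39.0% of all genes. Here and below no share of a route was tested, and nothing particular to a route is read from its counts. Rab37, known from secretory granule release in mast cells, lay at -0.35, 0.29 and 0.26 on the DN arrays, at -0.18, 0.17 and 0.01 in DP, at 1.33, 1.54 and 1.60 in CD4SP and at 1.48, 1.91 and 2.05 in CD8SP. All 6 single-positive arrays lay above all 6 DN and DP arrays. The gene rose 2.81-fold in CD4SP relative to DP (1.49 ± 0.19, adjusted p = 0.000132) and 3.52-fold in CD8SP relative to DP (1.81 ± 0.19, adjusted p = 2.74e-05). CD4SP and CD8SP differed by -0.32 ± 0.19 without passing the test, although Rab37 was called lower in CD4SP (-0.49, adjusted p = 0.0278) when DN replicate 1 and CD8SP replicate 1 were left out. Since these are bulk samples, more cells of a type and more RNA per cell cannot be told apart.

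Rab3d and Rab8b also rose in both single-positive subsets. Rab3d, which serves regulated granule exocytosis, lay at 0.63, 0.57 and 0.61 in CD4SP and at 0.46, 0.43 and 0.34 in CD8SP, against 0.01, -0.02 and 0.01 in DP. No single-positive array overlapped DP, and the gene rose by 0.60 ± 0.09 in CD4SP (adjusted p = 0.000428) and by 0.41 ± 0.09 in CD8SP (adjusted p = 0.00447). Rab8b, which carries cargo from the trans-Golgi network to the plasma membrane, lay at 0.62, 0.56 and 0.69 in CD4SP and at 0.59, 0.19 and 0.56 in CD8SP, against 0.00, -0.15 and 0.14 in DP and 0.23, 0.49 and 0.36 in DN. It fell by 0.36 ± 0.12 in DP relative to DN (adjusted p = 0.0421), rose by 0.62 ± 0.12 in CD4SP relative to DP (adjusted p = 0.00252) and by 0.45 ± 0.12 in CD8SP relative to DP (adjusted p = 0.0142). The fall in DP was no longer called without DN replicate 2 or 3, DP replicate 1 or 2 or any one CD4SP array (-0.36 to -0.29, adjusted p 0.0546 to 0.145), and the rise in CD8SP was not without DP replicate 2 or CD8SP replicate 3 (0.38 to 0.39, adjusted p 0.052 to 0.0595).

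The promoter windows of these genes are shown since both rose in both single-positive subsets. They are RefSeq windows of build GRCm38.p6, 250 bases before to 50 bases after the annotated start, written 5′ to 3′ on the gene's strand, with capitals on the GC box GGGCGG or its reverse complement. The Rab3d window is chr9:21918134-21918433 on the minus strand and holds 3 GC boxes, and the Rab8b window is chr9:66919656-66919955 on the minus strand and holds 2.
Rab3d: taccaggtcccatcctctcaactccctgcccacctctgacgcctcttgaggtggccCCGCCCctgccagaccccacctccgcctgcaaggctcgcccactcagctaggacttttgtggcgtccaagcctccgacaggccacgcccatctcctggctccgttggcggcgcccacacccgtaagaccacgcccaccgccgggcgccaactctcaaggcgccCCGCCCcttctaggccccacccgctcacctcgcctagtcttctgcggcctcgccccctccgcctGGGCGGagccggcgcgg
Rab8b: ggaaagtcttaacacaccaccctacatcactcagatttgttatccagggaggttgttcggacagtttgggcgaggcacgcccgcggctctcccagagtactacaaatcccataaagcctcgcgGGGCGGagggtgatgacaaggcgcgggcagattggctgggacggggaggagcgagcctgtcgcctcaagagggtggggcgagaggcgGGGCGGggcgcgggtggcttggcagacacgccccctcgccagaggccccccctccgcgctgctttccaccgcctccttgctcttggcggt

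Of the other Rabs of this route, Rab13, Rab10 and Rab12 were called. Rab13, which acts at tight junctions and in delivery to the cell surface, lay at 0.72, 0.59 and 1.18 in CD8SP against 0.00, -0.15 and 0.15 in DP, and rose by 0.83 ± 0.16 (adjusted p = 0.00177). In CD4SP it lay at 0.28, 0.36 and 0.68, above the DP arrays but not called (0.44), and CD4SP and CD8SP differed by -0.39 ± 0.16 without passing the test (adjusted p = 0.147). Rab10, which delivers the glucose transporter GLUT4 in fat cells, lay at 0.22, 0.17 and 0.30 in CD4SP against -0.02, -0.03 and 0.05 in DP, and rose by 0.23 ± 0.07 (adjusted p = 0.0308). That call ended without any one DP array or without CD4SP replicate 1 or 3 (0.20 to 0.25, adjusted p 0.052 to 0.113). Rab12 was listed with this route but is linked to degradation of the transferrin receptor, and its calls enter the counts of the route. It was highest in DP: it rose by 0.38 ± 0.11 in DP relative to DN (adjusted p = 0.0243) and fell by 0.34 ± 0.11 in CD8SP relative to DP (adjusted p = 0.0371). The first call ended without DN replicate 1 or 3 or DP replicate 3 (0.31 to 0.34, adjusted p 0.0725 to 0.0945), and the second without any one DP array, CD4SP replicate 2 or CD8SP replicate 2 (-0.37 to -0.25, adjusted p 0.051 to 0.133).

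Rab27a docks lytic granules at the membrane of cytotoxic T cells, and it was highest in DN. It lay at 0.03, 0.00 and -0.03 in DP against 0.47, 0.51 and 0.74 in DN, with no overlap, and fell by 0.57 ± 0.11 (adjusted p = 0.00198). In CD8SP it lay at -0.25, 0.14 and -0.01 and was not called against DP (-0.04 ± 0.11). The NK marker list was high on the same DN arrays, and the part of NK cells in this fall was not tested. Rab27b, its paralog, and Rab3a, Rab3b and Rab3c, the Rab3 forms best known from synapses, were called in no comparison.

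**Figure D2:**
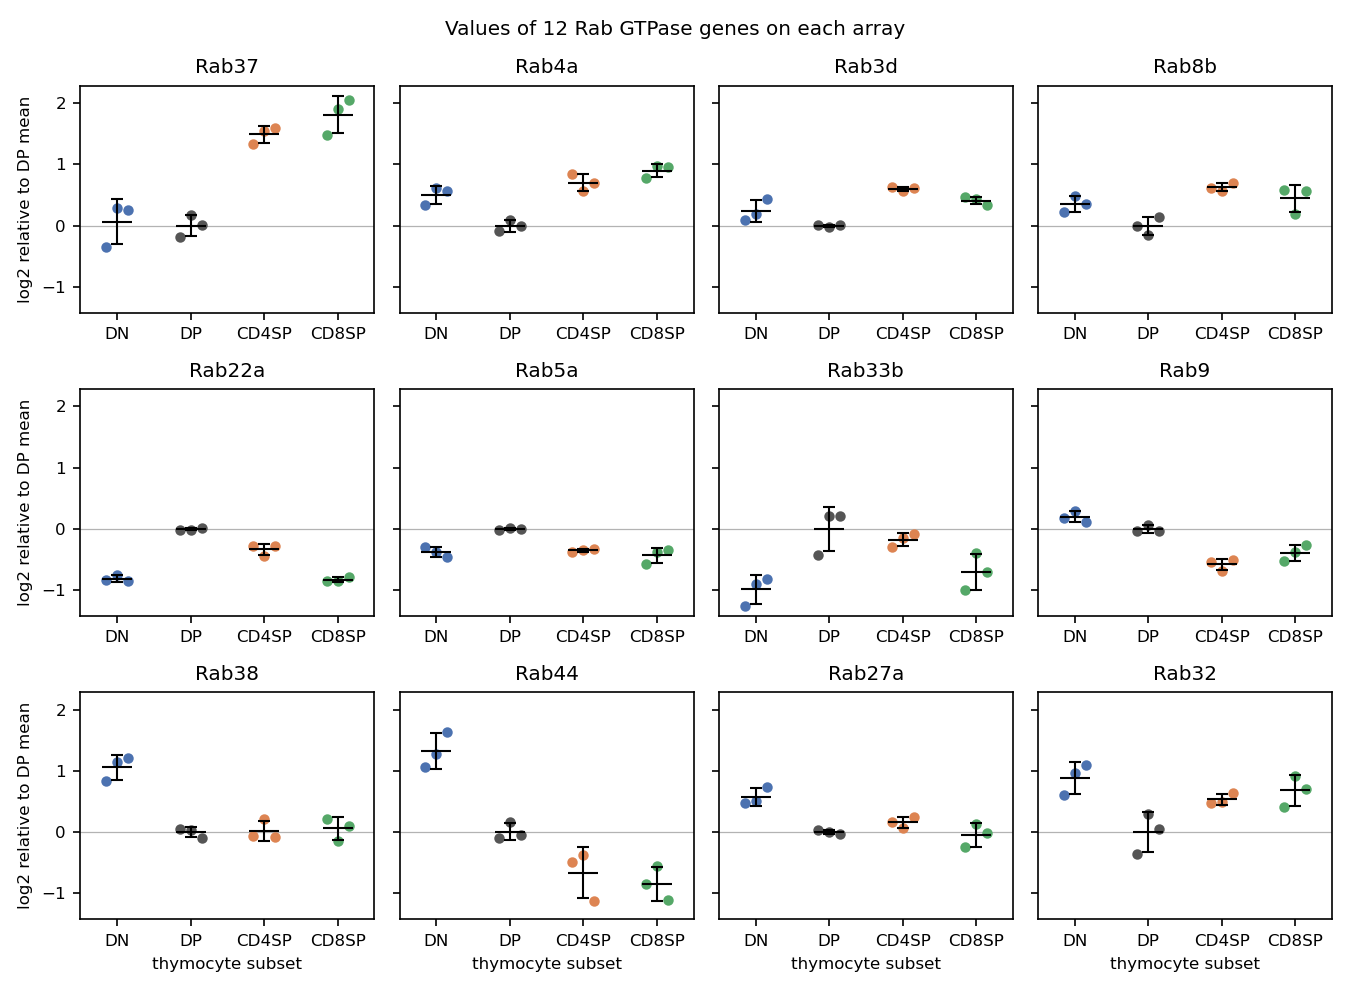
Log2 value relative to the DP mean of 12 Rab genes on each array (points) by subset, with the mean and SD of 3 arrays (bars). Rab37, Rab4a, Rab3d and Rab8b lie higher in CD4SP and CD8SP than in DP, Rab22a and Rab5a lie lower in CD4SP, CD8SP and DN than in DP, and Rab38 and Rab44 are highest in DN.

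Among the 9 Rabs of early endosomes and phagosomes, 4 rose and 1 fell in DP relative to DN, 1 rose and 3 fell in CD4SP relative to DP, and 1 rose and 2 fell in CD8SP relative to DP. The shares called were 55.6%, 44.4% and 33.3%, against 36.6%, 32.7% and 39.0% of all genes. The 1 that rose in CD4SP became 2 without DN replicate 1 or 3, and 0 without DP replicate 2 or 3 or CD4SP replicate 1 or 2. Rab22a, which sorts cargo including MHC class I in early and recycling endosomes, had the smallest p of the family. It lay at -0.84, -0.75 and -0.85 in DN, at -0.01, -0.01 and 0.02 in DP, at -0.28, -0.44 and -0.28 in CD4SP and at -0.85, -0.85 and -0.78 in CD8SP. Every DP array was above every other array, and the CD8SP arrays lay in the range of the DN arrays. Rab22a rose 1.76-fold in DP relative to DN (0.82 ± 0.07, adjusted p = 1e-05), fell by 0.33 ± 0.07 in CD4SP relative to DP (adjusted p = 0.00483) and fell by 0.83 ± 0.07 in CD8SP relative to DP (adjusted p = 7.45e-06). The call in CD4SP ended when the probe set whose mean was highest stood for the gene (-0.15, adjusted p = 0.32), a choice that favours values high outside DP.

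Rab5a, which drives fusion of early endosomes, was also highest in DP. It lay at -0.30, -0.38 and -0.45 in DN, at -0.02, 0.02 and 0.00 in DP, at -0.37, -0.35 and -0.33 in CD4SP and at -0.57, -0.37 and -0.35 in CD8SP, so that all DP arrays were above all others. It rose by 0.38 ± 0.08 in DP relative to DN (adjusted p = 0.0036) and fell by 0.35 ± 0.08 in CD4SP (adjusted p = 0.00596) and by 0.43 ± 0.08 in CD8SP (adjusted p = 0.00149) relative to DP. The promoter windows of Rab22a, at chr2:173659595-173659894 on the plus strand with 7 GC boxes, and of Rab5a, at chr17:53478984-53479283 on the plus strand with 1, are shown for this shared course.
Rab22a: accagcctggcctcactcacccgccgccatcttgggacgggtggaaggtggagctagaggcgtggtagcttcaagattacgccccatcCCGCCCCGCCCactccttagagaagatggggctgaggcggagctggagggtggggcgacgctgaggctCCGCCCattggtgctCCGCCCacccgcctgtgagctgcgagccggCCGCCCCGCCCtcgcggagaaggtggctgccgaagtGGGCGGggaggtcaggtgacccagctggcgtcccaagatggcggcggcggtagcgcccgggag
Rab5a: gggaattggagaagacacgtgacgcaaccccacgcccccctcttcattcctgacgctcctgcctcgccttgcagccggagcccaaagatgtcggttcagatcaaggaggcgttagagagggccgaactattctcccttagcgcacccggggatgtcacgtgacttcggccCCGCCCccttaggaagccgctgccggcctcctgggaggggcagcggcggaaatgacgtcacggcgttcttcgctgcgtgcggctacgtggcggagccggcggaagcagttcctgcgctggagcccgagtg

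Over all members, 48 had a promoter window, with 60 windows in total. A GC box on either strand was found in 68.3% of these, against 35.7% of 32851 windows in the table. A CACCC box (CCACCC, a motif of KLF factors) was found in 50% against 31.5%, an E box CAGCTG in 23.3% against 16.3% and a Runx site TGTGGT in 16.7% against 16.8%. An Ets site CCGGAAG was found in 8.33% against 8.86%, and AGGTCA, only a part of a ROR site, in 8.33% against 16.3%. Both strands were searched, and a GC box and a CACCC box can overlap. The 6 motifs were picked after a first look at these windows, and a match of letters is not a binding site.

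Rab5b and Rab5c are paralogs of Rab5a. Rab5b rose by 0.49 ± 0.10 in DP relative to DN (adjusted p = 0.00215). The call ended when only the probe set with the highest mean value was used (0.22, adjusted p = 0.179), which favours values high outside DP. Rab5b was not called in CD4SP (0.04 ± 0.10) or CD8SP (-0.23 ± 0.10) relative to DP, and its difference from Rab5a was not tested. Rab5c was called in no comparison. Rab21, which takes up integrins, rose by 0.25 ± 0.08 in DP relative to DN (adjusted p = 0.0342) and fell by 0.26 ± 0.08 in CD4SP relative to DP (adjusted p = 0.0271). Both Rab21 calls were close to the limit: the first ended without any one DN array or DP replicate 1 or 3 (0.20 to 0.27, adjusted p 0.0568 to 0.115), the second without DP replicate 1 or 3 or CD4SP replicate 2 or 3 (-0.27 to -0.22, adjusted p 0.0668 to 0.101). Rab17, described in epithelial cells, rose by 0.33 ± 0.11 in CD4SP (adjusted p = 0.0334) and by 0.45 ± 0.11 in CD8SP (adjusted p = 0.00615) relative to DP, the first of these not without DP replicate 2 or 3 or CD4SP replicate 1 or 2 (0.27 to 0.34, adjusted p 0.069 to 0.123). Rab31, which acts between the trans-Golgi network and endosomes, was the exception in DP: it lay at 0.06, -0.03 and -0.03 there against 0.22, 0.42 and 0.74 in DN, and fell by 0.46 ± 0.11 (adjusted p = 0.00895).

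Of the 8 recycling Rabs, 3 rose and 1 fell in DP relative to DN, 1 rose and 2 fell in CD4SP relative to DP, and 1 rose and 1 fell in CD8SP relative to DP. The shares called were 50%, 37.5% and 25%, against 36.6%, 32.7% and 39.0% of all genes. The paralogs Rab4a and Rab4b, which return receptors quickly from early endosomes to the surface, moved in opposite directions. Rab4a lay at 0.33, 0.61 and 0.57 in DN, at -0.09, 0.10 and -0.01 in DP, at 0.84, 0.57 and 0.69 in CD4SP and at 0.77, 0.98 and 0.95 in CD8SP, with every DP array below every other array. It fell by 0.50 ± 0.11 in DP relative to DN (adjusted p = 0.00374), rose by 0.70 ± 0.11 in CD4SP relative to DP (adjusted p = 0.000456) and by 0.90 ± 0.11 in CD8SP relative to DP (adjusted p = 6.41e-05). Rab4b lay at -0.21, 0.12 and 0.09 in DP against -0.48, -0.46 and -0.60 in DN and rose by 0.51 ± 0.13 (adjusted p = 0.0112). In CD4SP and CD8SP, Rab4b lay at -0.31 to 0.14 and was not called against DP.

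The Rab11 genes mark the slower recycling endosome. Rab11b lay at 0.00, -0.12 and 0.12 in DP against -0.50, -0.49 and -0.43 in DN, without overlap, and rose by 0.47 ± 0.08 (adjusted p = 0.00114). Rab11a was not called between DP and DN and fell by 0.32 ± 0.11 in CD4SP relative to DP (adjusted p = 0.0497), a call that ended without any one DN, DP or CD4SP array or CD8SP replicate 2 (-0.38 to -0.25, adjusted p 0.0501 to 0.176). Rab14, which works between the trans-Golgi network and endosomes, rose by 0.35 ± 0.08 in DP relative to DN (adjusted p = 0.00703), fell by 0.25 ± 0.08 in CD4SP (adjusted p = 0.0438) and by 0.56 ± 0.08 in CD8SP (adjusted p = 0.00031) relative to DP. The fall in CD4SP ended without any one DN or DP array, CD4SP replicate 2 or 3 or CD8SP replicate 2 (-0.27 to -0.20, adjusted p 0.0511 to 0.147).

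Of the 16 Rabs of the route from the endoplasmic reticulum through the Golgi, 4 rose and 1 fell in DP relative to DN, 1 rose and 1 fell in CD4SP relative to DP, and 1 rose and 5 fell in CD8SP relative to DP. The 5 became 3 without DP replicate 1 and 2 without DP replicate 2, DP replicate 3 or CD8SP replicate 1. The 1 that fell in CD4SP became 2 without DN replicate 1 and 3 without CD8SP replicate 1. The 1 that rose in CD8SP became 2 without DN replicate 1 and 0 without any one DP array or CD8SP replicate 2 or 3. With all arrays the shares called were 31.2%, 12.5% and 37.5% in these 3 comparisons, against 36.6%, 32.7% and 39.0% of all genes. The paralogs Rab33a and Rab33b moved in opposite directions between DP and DN. Rab33b, a Golgi Rab that binds the autophagy protein Atg16L1, lay at -0.42, 0.21 and 0.21 in DP against -1.25, -0.90 and -0.81 in DN and rose 1.98-fold (0.99 ± 0.20, adjusted p = 0.00254). Rab33a lay at 0.21, -0.12 and -0.09 in DP against 0.71, 0.87 and 0.59 in DN and fell by 0.72 ± 0.14 (adjusted p = 0.00156). The arrays of neither gene overlapped. In CD8SP relative to DP, Rab33b fell by 0.69 ± 0.20 (adjusted p = 0.0173), with CD8SP arrays at -0.99, -0.40 and -0.70 that overlap DP replicate 1, and this call ended without DP replicate 2 or 3 or CD8SP replicate 1 (-0.59 to -0.55, adjusted p 0.0638 to 0.0682).

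The Rab6 genes serve transport back to the Golgi. Rab6b lay at -0.06, 0.21 and -0.14 in DP against -0.91, -0.58 and -0.90 in DN and rose by 0.80 ± 0.13 (adjusted p = 0.000765), and Rab6a rose by 0.32 ± 0.08 (adjusted p = 0.0104). Rab6b fell by 0.40 ± 0.13 in CD8SP relative to DP (adjusted p = 0.0335), not so without DP replicate 1 or 2 or CD8SP replicate 1 or 3 (-0.44 to -0.30, adjusted p 0.0547 to 0.13). Rab1a, which takes vesicles from the endoplasmic reticulum to the Golgi, lay at -0.36, -0.44 and -0.41 in CD4SP and at -0.68, -0.52 and -0.43 in CD8SP, against 0.10, -0.02 and -0.08 in DP. It fell by 0.40 ± 0.08 in CD4SP (adjusted p = 0.00366) and by 0.54 ± 0.08 in CD8SP (adjusted p = 0.000439), and its paralog Rab1b was called in no comparison.

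The remaining Golgi members changed less or rested on few arrays. Rab43 rose by 0.42 ± 0.10 in CD4SP (adjusted p = 0.00934) and by 0.31 ± 0.10 in CD8SP (adjusted p = 0.0316) relative to DP, the CD8SP call ending without any one DP or CD8SP array (0.31 to 0.32, adjusted p 0.0524 to 0.0819). Rab36 lay at -0.17, -0.41 and -0.67 in CD8SP against -0.01, 0.00 and 0.01 in DP and fell by 0.42 ± 0.12 (adjusted p = 0.0184), not so without DP replicate 3 or CD8SP replicate 3 (-0.42 to -0.29, adjusted p 0.0503 to 0.063). Of its 3 probe sets, 1 fell there. Rab18, which acts at the endoplasmic reticulum and lipid droplets, fell by 0.43 ± 0.15 in CD8SP relative to DP (adjusted p = 0.0479), with CD8SP replicate 1 at -0.85 and the other CD8SP arrays at -0.20 and -0.24. That call ended without any one DN, DP or CD4SP array or CD8SP replicate 1, and the value was -0.48 to -0.22 there (adjusted p 0.0581 to 0.141). Rab19 rose by 0.77 ± 0.26 in DP relative to DN (adjusted p = 0.0393), with DN replicate 1 at -1.30 and the other DN arrays at -0.44 and -0.56, and its call ended without DN replicate 1, DP replicate 2 or 3, CD4SP replicate 2 or CD8SP replicate 2 (0.50 to 0.77, adjusted p 0.0511 to 0.137).

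Among the 7 Rabs of late endosomes, lysosomes and lysosome-related organelles, 0 rose and 2 fell in DP relative to DN (by limma, with 1 higher at an unadjusted p under 0.05, Rab29, and 1 called higher without CD8SP replicate 1), 1 rose and 1 fell in CD4SP relative to DP (2 fell without CD8SP replicate 1), and 2 rose and 2 fell in CD8SP relative to DP. With all arrays the shares called were 28.6%, 28.6% and 57.1%, against 36.6%, 32.7% and 39.0% of all genes. Rab32 and Rab38, which build melanosomes and other lysosome-related organelles, had their highest means in DN. Rab38 lay at 0.05, 0.04 and -0.09 in DP against 0.83, 1.14 and 1.21 in DN and fell 2.09-fold (-1.06 ± 0.13, adjusted p = 8.83e-05). In CD4SP and CD8SP it lay at -0.14 to 0.22, overlapping DP. Rab32 lay at -0.35, 0.30 and 0.05 in DP against 0.60, 0.96 and 1.09 in DN and fell by 0.88 ± 0.19 (adjusted p = 0.00342). In CD4SP it lay at 0.47, 0.49 and 0.64 and in CD8SP at 0.41, 0.92 and 0.71, overlapping DN, and neither was tested against DN. Rab32 was called higher in CD4SP (0.54 ± 0.19, adjusted p = 0.0487) and in CD8SP (0.68 ± 0.19, adjusted p = 0.014) relative to DP. The first of these ended without DN replicate 2 or 3, DP replicate 1 or 3, any one CD4SP array or CD8SP replicate 3 (0.36 to 0.57, adjusted p 0.0505 to 0.174), and the second without DP replicate 1 or CD8SP replicate 2 (0.51 to 0.56, adjusted p 0.0543 to 0.0553).

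Rab9, which returns receptors from late endosomes to the trans-Golgi network, fell in both single-positive subsets. It lay at -0.54, -0.68 and -0.51 in CD4SP and at -0.52, -0.38 and -0.27 in CD8SP, against -0.04, 0.07 and -0.04 in DP and 0.18, 0.30 and 0.12 in DN. No single-positive array overlapped DP, and the gene fell by 0.58 ± 0.09 in CD4SP (adjusted p = 0.000554) and by 0.39 ± 0.09 in CD8SP (adjusted p = 0.00591). Rab7, the main late endosome Rab, fell by 0.30 ± 0.10 in CD8SP relative to DP (adjusted p = 0.0361), with CD8SP replicate 1 at -0.54 and the others at -0.19 and -0.16. Without CD8SP replicate 1, DN replicate 2 or any one DP array the call ended (-0.31 to -0.18, adjusted p 0.05 to 0.0905). Rab29, a Golgi and lysosome Rab linked to the kinase LRRK2, rose by 0.39 ± 0.13 in CD8SP relative to DP (adjusted p = 0.0406) although the arrays overlap, and its call ended without any one DN array, DP replicate 1 or 3, CD4SP replicate 1 or CD8SP replicate 2 or 3 (0.28 to 0.39, adjusted p 0.0507 to 0.144).

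Outside these routes only Rab44 was called, of 6 genes. That is 16.7% in each comparison with DP, against 36.6% (DN), 32.7% (CD4SP) and 39.0% (CD8SP) of all genes. Rab44 is a large Rab with EF hands that takes part in mast cell degranulation in mice, and it had the family's largest fall. It lay at 1.06, 1.28 and 1.63 in DN, at -0.10, 0.16 and -0.05 in DP, at -0.48, -0.37 and -1.13 in CD4SP and at -0.85, -0.56 and -1.11 in CD8SP, with no overlap between DN, DP and the single-positive arrays. It fell 2.50-fold in DP relative to DN (-1.32 ± 0.22, adjusted p = 0.000682), by 0.66 ± 0.22 in CD4SP relative to DP (adjusted p = 0.0387) and by 0.84 ± 0.22 in CD8SP relative to DP (adjusted p = 0.0103). The fall in CD4SP ended without DN replicate 2, any one DP array or CD4SP replicate 3 (-0.71 to -0.42, adjusted p 0.0521 to 0.138).

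The members whose mean was highest in DN stand beside the markers of other blood cells and of γδ T cells, which were highest there too. The DN gate, CD4-CD8-TCRb-, sets no limit on the γδ receptor. In DP relative to DN, 6 of 12 myeloid and dendritic markers fell, 7 of 8 NK and innate lymphoid markers, 3 of 7 B cell markers (5 without DN replicate 1) and 3 of 3 γδ T cell markers. Leading genes were S100a9 of neutrophils (-7.61 ± 0.67), Tyrobp of NK and myeloid cells (-3.49 ± 0.35), Ms4a1 of B cells (-4.96 ± 0.52) and the T cell receptor γ segment Trgv4 (-6.56 ± 0.23). The part of such cells in the falls of Rab27a, Rab31, Rab32, Rab33a, Rab38 and Rab44 was not tested. In CD8SP relative to DP the NK gene Klrd1 rose by 5.90 ± 0.42 while Gzma, the granzyme A gene of cytotoxic cells, named here after its values were seen, fell by 2.96, so the NK list did not move together there. The part of NK cells in the CD8SP values was not tested either.

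**Figure D3:**
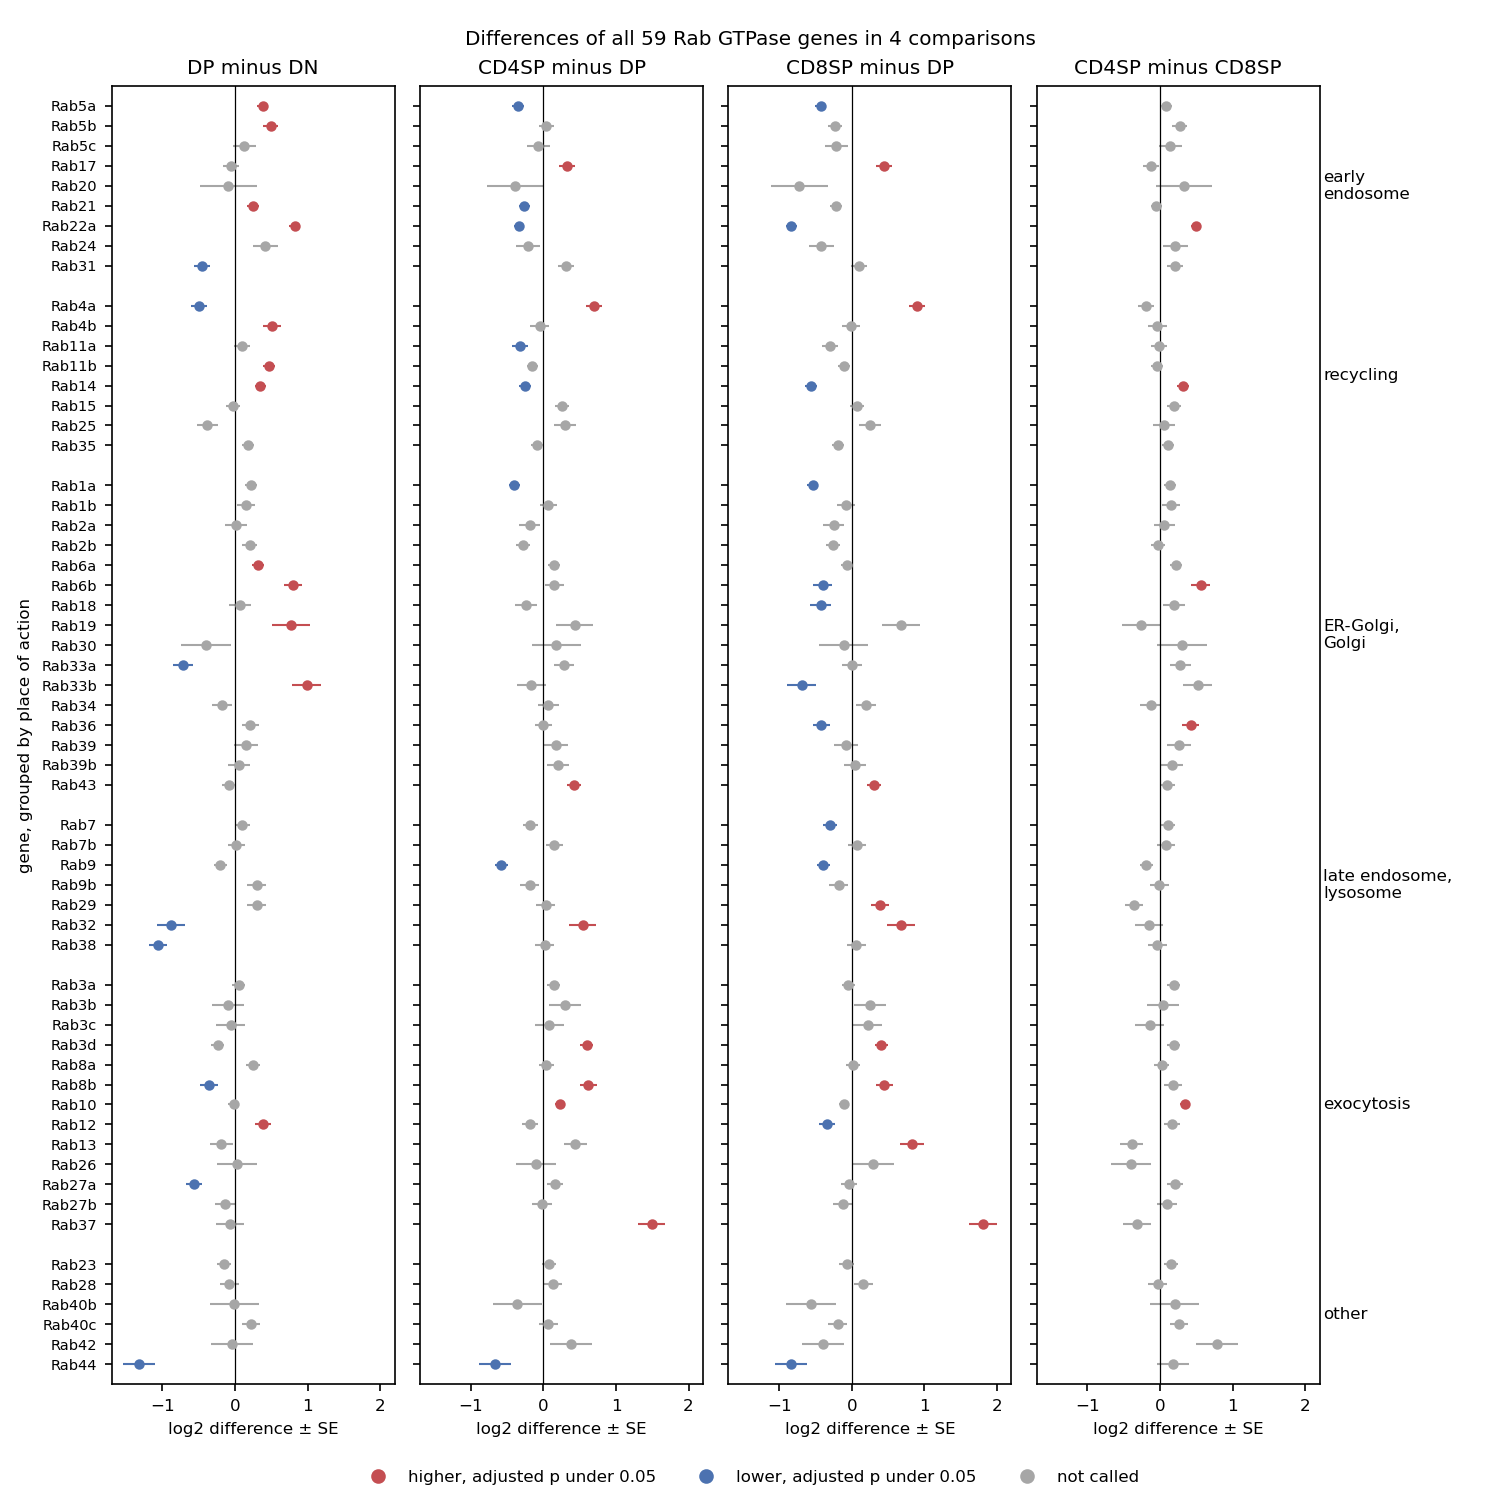
Log2 difference with its standard error for all 59 Rab genes, with 1 panel for each of the 4 comparisons and called genes in red (higher) or blue (lower) and the others in grey. Most differences lie within 1 of 0, Rab37 at 1.49 and 1.81 and Rab44 at -1.32 being the largest.

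CD4SP and CD8SP cells differed in 5 members, all higher in CD4SP, which is 8.47% of the family against 12.7% of all genes. This comparison is at the same time the test of whether the shift away from DP was unequal in the single-positive subsets. Rab22a lay at -0.28, -0.44 and -0.28 in CD4SP against -0.85, -0.85 and -0.78 in CD8SP and was higher by 0.49 ± 0.07 (adjusted p = 0.00174). Rab6b lay at 0.23, 0.23 and 0.00 in CD4SP against -0.57, -0.27 and -0.37 in CD8SP (0.56 ± 0.13, adjusted p = 0.0202). Rab10 lay at 0.22, 0.17 and 0.30 in CD4SP against -0.09, -0.12 and -0.13 in CD8SP (0.34 ± 0.07, adjusted p = 0.0112). The arrays of these 3 genes did not overlap, nor did those of Rab14 and Rab36 below, a separation seen for 30.3% of all genes.

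Rab14 lay at -0.12, -0.33 and -0.29 in CD4SP against -0.59, -0.63 and -0.47 in CD8SP (0.32 ± 0.08, adjusted p = 0.0311), and Rab36 at -0.09, 0.18 and -0.09 in CD4SP against -0.17, -0.41 and -0.67 in CD8SP (0.42 ± 0.12, adjusted p = 0.0456). No single probe set of Rab36 was called between CD4SP and CD8SP (0.15 to 0.93). Leaving out single arrays ended 4 of these 5 calls, that of Rab22a being kept. The Rab10 call ended without CD4SP replicate 3 (0.31, adjusted p = 0.0544), that of Rab6b without CD4SP replicate 1 or 2 or CD8SP replicate 1 (0.47 to 0.52, adjusted p 0.0522 to 0.0728), that of Rab14 without CD4SP replicate 1 or 3 or CD8SP replicate 1 or 2 (0.25 to 0.34, adjusted p 0.054 to 0.11), and that of Rab36 without any one array other than CD8SP replicate 1 (0.30 to 0.47, adjusted p 0.0551 to 0.157). Members lower in CD4SP numbered 0 by limma, and 2 at an unadjusted p under 0.05 (Rab13 and Rab29).

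Probe sets of a gene can disagree, and 38 members had several. Rab4b, Rab5a, Rab9, Rab13, Rab19, Rab29, Rab32, Rab33a, Rab33b and Rab44 were called on a lone probe set each, so no such check was possible for them. In none of the 4 comparisons did a member have probe sets called in opposite directions (0 of 38). All 4 probe sets of Rab22a rose in DP relative to DN, by 0.47 to 1.07, and all 4 fell in CD8SP relative to DP, by -0.97 to -0.68. In CD4SP relative to DP 2 of the 4 fell (-0.51 and -0.32) and 2 were not called (-0.35 and -0.15). Both probe sets of Rab37 rose in CD4SP (1.43 and 1.55) and in CD8SP (1.80 and 1.83), and both of Rab4a were called in the 3 comparisons with DP. Rab38 fell by 1.51 and 0.62 on its 2 probe sets in DP relative to DN.

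Other members rest on some of their probe sets. Of the 7 probe sets of Rab14, 2 rose in DP relative to DN, by 1.13 and 1.11, while the other 5 lay between -0.26 and 0.17 and were not called. For Rab8b, 1 probe set read -0.57, 1.09 and 0.82 in DP against DN, CD4SP against DP and CD8SP against DP, and the other read -0.14, 0.16 and 0.08 and was not called. For Rab27a, 3 of 4 probe sets fell in DP relative to DN (-0.83 to -0.72) and 1 was at 0.04. For Rab36, 1 of 3 probe sets fell in CD8SP relative to DP (range of the 3 -0.95 to -0.13). In CD4SP against CD8SP, 0 of these 3 were called (0.15 to 0.93). In CD4SP relative to DP no single probe set was called for Rab10 (0.19 to 0.27), Rab17 (0.28 to 0.38) or Rab21 (-0.27 to -0.26). Taking the probe set of the highest mean in place of the average ended 22 of the 62 calls and turned the sign of Rab14 in DP over DN (-0.26) and in CD4SP over DP (0.08). With DP centred on 0, that probe set is the one reading highest outside DP, not the brightest. The choice moved the median difference of all genes from 0.039 to -0.027 in DP over DN. In CD4SP over DP it moved from 0.036 to 0.105, and in CD8SP over DP from 0.002 to 0.099. Calls ended by this choice therefore do not measure how far probe sets disagree.

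**Figure D4:**
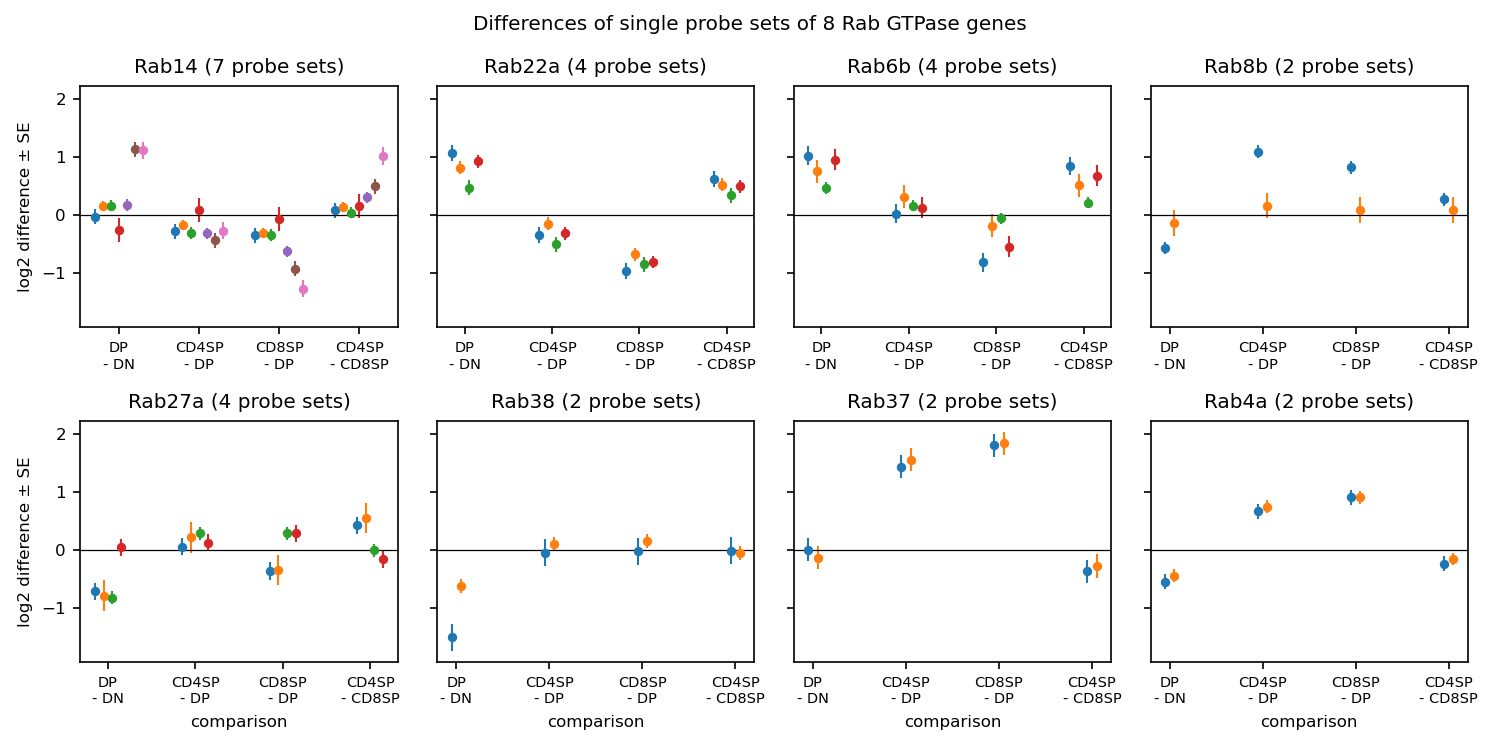
Log2 difference with its standard error on each probe set of 8 Rab genes, by comparison. The 4 probe sets of Rab22a lie together, while 2 of 7 probe sets of Rab14 (1.13 and 1.11) stand above the others in DP over DN.

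A further 26 members were called in no comparison. They include Rab2a and Rab2b of the early secretory route, Rab8a of the plasma membrane route, Rab35 of recycling, Rab7b of the lysosome route and Rab23, known from Hedgehog signalling. Their differences lay between -0.40 and 0.42 in DP against DN, between -0.39 and 0.38 in CD4SP against DP, between -0.72 and 0.30 in CD8SP against DP and between -0.40 and 0.78 in CD4SP against CD8SP, with standard errors of up to 0.39. Differences of such sizes, some larger than their standard error, went uncalled with 3 arrays per subset, which does not show that these genes were equal.

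The genes that act on Rabs were counted in 4 lists. The cycle core holds the escort proteins, the prenyl transferase and the GDP dissociation inhibitors, with 7 genes measured. Its shares called were 28.6% in DP against DN, 14.3% in CD4SP against DP, 28.6% in CD8SP against DP and 0% in CD4SP against CD8SP. Over all genes these shares were 36.6%, 32.7%, 39.0% and 12.7%. In DP relative to DN 1 rose and 1 fell: Rabggta, a subunit of the prenyl transferase that anchors Rabs in membranes, by 0.53 ± 0.13 (adjusted p = 0.00925), and Gdi2 by -0.22 ± 0.08 (adjusted p = 0.0421), a call that 13 of 23 alternatives ended. Chml, the Rab escort protein 2, lay far below DP in both single-positive subsets, and fell by 1.58 ± 0.13 in CD4SP (adjusted p = 4.61e-06) and by 1.56 ± 0.13 in CD8SP (adjusted p = 4.61e-06). Rabif, also in this list, fell by 0.27 ± 0.10 in CD8SP relative to DP (adjusted p = 0.0459), a call that 15 of 23 alternatives ended. Without CD8SP replicate 1 the counts became 2 higher in DP than DN, 2 lower in CD4SP than DP and 2 lower in CD4SP than CD8SP. The 1 higher in DP than DN also became 2 without DP replicate 1.

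Of 36 activators (GEFs), 14 rose and 5 fell in DP relative to DN, 8 rose and 4 fell in CD4SP relative to DP, 8 rose and 9 fell in CD8SP relative to DP, and 9 rose and 0 fell in CD4SP relative to CD8SP (by limma, with 14 higher and 1 lower at an unadjusted p under 0.05). The 9 became 4 or 5 without DP replicate 2 or 3, any one CD4SP array or CD8SP replicate 2 or 3, and the 5 that fell in DP became 3 without DN replicate 2 or 3 or DP replicate 1. Als2cl, a Rab5 activator, lay at -2.20, -2.68 and -2.66 in DN, at -0.18, 0.09 and 0.09 in DP, at 1.13, 1.39 and 1.34 in CD4SP and at 0.71, 0.85 and 0.79 in CD8SP. It thus rose in DP relative to DN by 2.51 ± 0.14 (adjusted p = 3.43e-07) and in CD4SP relative to DP by 1.29 ± 0.14 (adjusted p = 3.29e-05). Rin3, which also activates Rab5 proteins, rose in CD4SP by 2.60 ± 0.17 (adjusted p = 1.1e-06) and in CD8SP by 1.96 ± 0.17 (adjusted p = 7.68e-06) relative to DP, beside the falls of Rab5a given above. Dennd4c, an activator of Rab10, was highest in DP: it rose by 0.99 ± 0.09 relative to DN and fell by 2.15 ± 0.09 in CD4SP (adjusted p = 4.23e-08) and by 1.88 ± 0.09 in CD8SP (adjusted p = 9.28e-08) relative to DP. Dennd2d rose by 2.10 ± 0.19 in CD4SP and by 2.30 ± 0.19 in CD8SP.

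Of 39 inactivators (GAPs), 12 rose and 5 fell in DP relative to DN, 8 rose and 8 fell in CD4SP relative to DP, 6 rose and 13 fell in CD8SP relative to DP, and 6 rose and 1 fell in CD4SP relative to CD8SP. In DP relative to DN the count became 6 higher and 8 lower without DN replicate 1, and 6 and 5 higher without DP replicate 2 and DP replicate 3. The 1 lower in CD4SP than in CD8SP became 2 without DP replicate 1 and 0 without CD4SP replicate 3 or CD8SP replicate 3. Evi5 fell by 2.37 ± 0.23 in DP relative to DN (adjusted p = 1.79e-05), at -0.55, 0.45 and 0.09 in DP against 2.25, 2.43 and 2.45 in DN. Tbc1d4, which acts on Rab10 and is also called AS160, lay at 0.80, 0.98 and 1.09 in CD4SP against -1.08, -0.81 and -1.43 in CD8SP and was higher by 2.07 ± 0.20 (adjusted p = 0.000138). Rab10 itself was higher in CD4SP than in CD8SP by 0.34 ± 0.07.

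Of 53 effectors, 14 rose and 11 fell in DP relative to DN, 11 rose and 9 fell in CD4SP relative to DP, 11 rose and 14 fell in CD8SP relative to DP, and 10 rose and 2 fell in CD4SP relative to CD8SP. Without DP replicate 2 or 3 the falls numbered 5 in CD4SP and 9 in CD8SP relative to DP, without CD4SP replicate 2 or 3 they numbered 5 in CD4SP, and without CD4SP replicate 3 the genes higher in CD4SP than CD8SP numbered 6. Sytl2, a synaptotagmin-like protein that binds Rab27, lay at 0.24, 1.14 and 1.46 in DN, at 0.05, -0.07 and 0.03 in DP, at 3.46, 3.25 and 3.43 in CD4SP and at 0.94, 0.68 and 0.54 in CD8SP. It rose by 3.38 ± 0.25 in CD4SP relative to DP (adjusted p = 1.95e-06) and was higher in CD4SP than in CD8SP by 2.66 ± 0.25 (adjusted p = 0.000104), while Rab27a was called in neither comparison. Osbpl1a, a Rab7 effector, fell by 2.23 ± 0.14 in DP relative to DN, and Myo5a, the myosin that Rab27 and Rab11 recruit, fell by 1.01 ± 0.08. Rabep2, a Rab4 and Rab5 effector, rose by 1.30 ± 0.20 in CD4SP and by 1.34 ± 0.20 in CD8SP relative to DP.

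The share called was 52.8% of the activators, 43.6% of the inactivators and 47.2% of the effectors in DP against DN, where 33.9% of the Rab genes and 36.6% of all genes were called. In CD4SP against DP the shares were 33.3%, 41.0% and 37.7%, against 27.1% of the Rab genes and 32.7% of all genes. In CD8SP against DP they were 47.2%, 48.7% and 47.2%, against 35.6% and 39.0%, and in CD4SP against CD8SP 25.0%, 17.9% and 22.6%, against 8.47% and 12.7%. No test was made of these shares against each other, and nothing particular to a list is read from them.

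**Figure D5:**
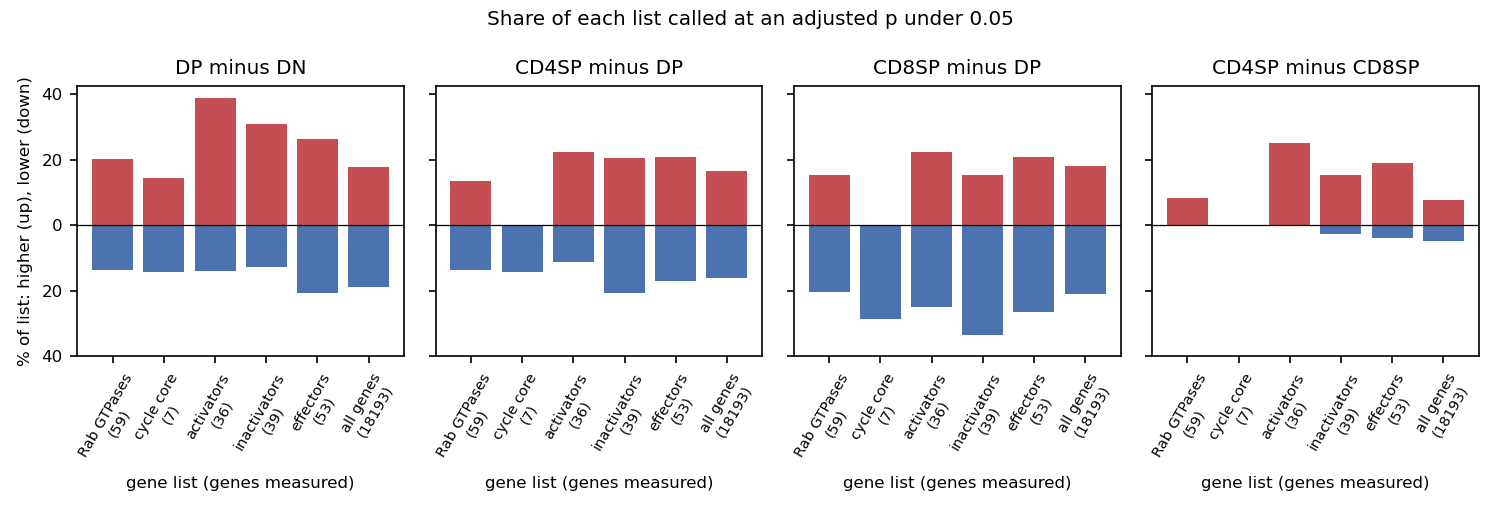
Percent of each gene list called higher or lower in DP relative to DN, CD4SP relative to DP, CD8SP relative to DP and CD4SP relative to CD8SP, for the 59 Rab genes, the 7 cycle core genes, 36 activators, 39 inactivators, 53 effectors and all 18193 genes. The Rab genes lie near all genes, as the 33.9% against 36.6% in DP relative to DN shows.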

How the data were processed

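Total RNA of 4 sorted thymocyte subsets had been hybridised to 12 Affymetrix mouse expression arrays, per the labels' protocols. The authors deposited log values, read here as log2, between -9.94 and 10.28 with 0 missing, and no source used here states the base of the log. The submitters' processing notes name MAS5 with neither version nor role. The deposited values show that the mean of the DP arrays was subtracted per probe set (largest absolute DP mean 1.27e-06), so no filter on dim probe sets was possible. No genome build was named.

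Of 45101 probe sets, 34958 had 1 gene symbol in the platform annotation, 932 several and 9211 none. After 64 control probe sets were left out, 34945 remained, 34741 of them matched by gene ID to a RefSeq table of GRCm38.p6, with 0 symbols updated. Probe sets were averaged per gene without further normalization (array medians -0.096 to 0.049). The 4 group means over all 12 arrays were fitted with limma 3.58.1 in R 4.3.3, without an intensity trend, with two-sided p-values and Benjamini-Hochberg adjustment within each comparison over 18193 genes. The fit was also run on simulated data, with independent normal values at the residual SD of each gene. Those data held no array that deviated, so the run does not show how the fit handles such arrays.

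Groups and replicate numbers came from the sample titles. Residuals of arrays with the same number correlated by 0.106 to 0.156 for number 1, -0.025 to 0.088 for number 2 and 0.021 to 0.139 for number 3, against -0.162 to 0.08 for different numbers. Pairing was taken to need over 0.1 for every pair of a number, which number 1 met and numbers 2 and 3 did not. The replicate number was therefore not used as a block in the results given. Counts with it as a block, and with the arrays numbered 1 as a factor, are given below. The arrays numbered 1 did deviate together, for a reason that was not tested. Any Rab gene called in a comparison could be named. Values on every array were required for genes called with a difference of at least 1 and no overlap, and are also given for other members. Of each list of regulators up to 4 called genes with the lowest adjusted p per comparison could be named, and of each marker list the first. The members and lists were chosen with earlier results of these data known. Alternatives were other choices of probe set, quantile normalization, median centring, array weights, a variance trend, a replicate block, a term for arrays numbered 1, fits of 6 arrays and leaving out arrays.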

Additional observations from a re-analysis of the deposited data

Results flagged for a closer look

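The changes from DP differed between CD4SP and CD8SP for 5 Rab genes, by the test of CD4SP against CD8SP itself (limma, Benjamini-Hochberg adjustment over all genes). That is 8.47% of the 59 Rab genes, against 12.7% of all genes (7.78% higher and 4.91% lower), so the count is no result about the family. Relative to DP, Rab22a fell by 0.33 in CD4SP and by 0.83 in CD8SP, a difference of 0.49 (adjusted p = 0.00174). The difference was 0.56 for Rab6b (adjusted p = 0.0202), 0.34 for Rab10 (adjusted p = 0.0112), 0.42 for Rab36 (adjusted p = 0.0456) and 0.32 for Rab14 (adjusted p = 0.0311). For Rab36 no single probe set was called in this comparison. In each of these 5 genes all 3 CD4SP arrays lay above all 3 CD8SP arrays, a separation seen for 30.3% of all genes in either direction. Among them Rab22a is the gene whose call held under every alternative run but quantile normalization.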

How the results depend on the processing

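Of 62 calls of a Rab gene in a comparison, 16 held under all 23 alternatives run for a gene, 31 under all but quantile normalization and 37 when each array was left out in turn. The 16 are Rab5a in the 3 comparisons with DP, Rab22a in DP against DN and CD8SP against DP, Rab37, Rab3d and Rab4a in CD4SP against DP and CD8SP against DP, Rab9 in CD4SP against DP, and Rab27a, Rab31, Rab38 and Rab44 in DP against DN. Rab5a, Rab9 and Rab44 have 1 probe set each, so the other choices of probe set could not change their values. Quantile normalization ended 42 calls. It gives all arrays an SD of 0.63, where the DP arrays, centred on their own mean, had 0.19 to 0.21 and the others 0.67 to 0.83, so it widens the DP arrays. It left 3 members higher and 4 lower in DP than DN, 4 and 3 in CD4SP than DP, 3 and 3 in CD8SP than DP, and 0 higher in CD4SP than CD8SP. The probe set of the highest mean is, with DP centred on 0, the one reading highest outside DP, so its counts lean that way. It left 7 higher in DP than DN, 4 lower in CD4SP than DP, 7 lower in CD8SP than DP and 2 higher in CD4SP than CD8SP. It turned Rab14 to -0.26 in DP against DN and to 0.08 in CD4SP against DP, and the uncalled Rab27b to 0.33 in CD8SP against DP. The probe set of the smallest spread left 3 higher in CD4SP than CD8SP, and turned the uncalled Rab27b to 0.38 in DP against DN, the uncalled Rab27a to 0.28 in CD8SP against DP (also with unsuffixed probe sets), Tbc1d1 to -0.18 in CD8SP against DP, Tbc1d30 to -0.24 in CD4SP against DP and Cd163l1 to 0.00 in CD8SP against DP (also with unsuffixed probe sets). Fits of only the 6 arrays compared, which have fewer samples, left 6 lower in CD8SP than DP and 2 higher in CD4SP than CD8SP, and ended 16 calls. Median centring, chosen after seeing the data, left 5 higher in CD4SP than DP and 3 higher in CD4SP than CD8SP. Without both DN replicate 1 and CD8SP replicate 1, 3 were higher and 2 lower (Rab29 and Rab37) in CD4SP than CD8SP. Array weights gave 1 lower there (Rab29), and so did counting the symbols that are no GTPase (Rab5if). The cause was not tested where none is given.

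Leaving out 1 array in turn gave 9 to 15 higher and 7 to 9 lower in DP than DN, 5 to 9 and 4 to 11 in CD4SP than DP, 6 to 10 and 7 to 13 in CD8SP than DP, and 2 to 4 and 0 to 1 in CD4SP than CD8SP. With the replicate number as a block, 12 members were higher and 8 lower in DP than DN, 10 and 8 in CD4SP than DP, 10 and 13 in CD8SP than DP, and 7 and 1 (Rab13) in CD4SP than CD8SP, and 2 calls ended. With the arrays numbered 1, which deviate together, as a factor, 13 were higher and 9 lower in DP than DN, 10 and 9 in CD4SP than DP, 10 and 16 in CD8SP than DP, and 7 and 0 in CD4SP than CD8SP. It gave 2 Rabs of the Golgi route higher and 2 lower in CD4SP than DP, 2 of them higher in CD8SP than DP, and 5 of early endosomes lower in CD8SP than DP. Since levels were lost, signal over background is unknown, and a gene with no signal in any subset cannot be told from one with no change.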

Other observations

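The 4 symbols of the Rab form that are no Rab GTPase gene were fitted in the same model and were named after their values were seen. Rab3ip, which encodes Rabin8, an activator of Rab8, rose by 0.95 in CD4SP (adjusted p = 0.00272) and by 0.86 in CD8SP (adjusted p = 0.00412) relative to DP, beside rises of Rab8b of 0.62 in CD4SP and 0.45 in CD8SP. Rab5if fell by 0.49 in DP relative to DN (adjusted p = 0.000284), rose by 0.27 in CD8SP relative to DP (adjusted p = 0.011), was not called in CD4SP relative to DP (-0.06) and was lower in CD4SP than in CD8SP by -0.33 (adjusted p = 0.0128). Rab26os fell by 0.81 in DP relative to DN (adjusted p = 0.0146), where Rab26 was not called. Rab10os rose by 0.28 in DP relative to DN (adjusted p = 0.0402) and fell by 0.35 in CD8SP relative to DP (adjusted p = 0.014), while Rab10 was called in neither comparison.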
